A study of Mus musculus with 22 samples.

Results

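The MYC and MAX network was followed through 3 stages of B cell development in mouse bone marrow. Its 10 genes, Myc, Mycn, Mycl, Max, Mxd1, Mxi1, Mxd3, Mxd4, Mnt and Mga, were taken by symbol from the gene tables, in which 23129 genes were shared by all stages. All 10 were found in each table and all 10 passed the filter on low values at each stage. The mice were adult tet-LIN28B animals, which carry a doxycycline-inducible, Flag-tagged human LIN28B cDNA at the Col1a locus (1 allele) together with the rtTA-M2 activator at Rosa26, and littermate controls, which carry the rtTA-M2 allele alone. Doxycycline was given in the chow (200 mg/kg) to both genotypes over 10 days, so the drug and the activator are common to all groups and the transgene is not restricted to B cells. Poly-A RNA was sequenced from 22 libraries of 15 mice. Large Pro-B cells had 5 tet-LIN28B and 4 control libraries, large Pre-B cells had 4 and 3, and small Pre-B cells had 3 of each genotype. For 7 mice both large populations were sequenced, whereas the small cells were sorted from different animals.

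MYC, MYCN and MYCL are transcription factors that bind DNA as heterodimers with MAX, at a hexamer called the E-box, and switch on genes of ribosome production, nucleotide synthesis and cell growth. MXD1, MXI1, MXD3, MXD4 and MNT also pair with MAX and bind the same sites but recruit SIN3 corepressors, and MGA pairs with MAX inside a Polycomb complex, so the members compete for a common partner. In B cell precursors MYC is known as a factor of the growing, interleukin-7-responsive stages and is shut down when pre-B cells turn small and rearrange the light chain. LIN28B, normally made in early life, binds RNA and acts both by holding back let-7 microRNAs and on mRNAs themselves.

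The E-box carries the network's own binding specificity, and its core CACGTG, which reads the same on both strands, was searched in promoter windows of 300 bases (250 before to 50 after a gene start, RefSeq, GRCm38.p6). Of the 10 genes, 9 had a window, 11 windows in all, and Myc had none. The motif stood in 3 of the 11 windows, those of Max, Mxd4 and Mnt, against 7.15% of all 32851 windows of that length. That share was not matched for base composition. The sites are shown with their flanks and the motif in capitals, on the strand of the gene, at chr12:76962234-76962263 for Max, chr5:34187912-34187941 for Mxd4 and chr11:74830789-74830818 for Mnt.
Max: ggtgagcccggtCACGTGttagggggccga
Mxd4: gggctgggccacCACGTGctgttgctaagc
Mnt: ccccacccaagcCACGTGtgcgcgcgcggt
A match of letters is a description and not a measured binding site.

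Because LIN28B acts on let-7, matches to the let-7 seed were searched as well. From the mouse let-7 and miR-98 family, the 12 RefSeq entries with the seed shown in capitals for let-7a (bases 2 to 8) were selected. That seed pairs with CTACCTC in an mRNA.
let-7a-5p: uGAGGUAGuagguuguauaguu
Mxd1: ctggaacattgtcCTACCTCa
In the 3′ UTR of the longest coding GENCODE M21 transcript, CTACCTC was found in 1 of the 10 members, Mxd1, once, at chr6:86650229-86650249 (minus strand), against 19.7% of genes whose 3′ UTR is within 25% of that length. Another match of the same length, TACCTCA, which overlaps it by 6 bases, occurred 2 times in Mycn and once each in Mycl, Mxd1, Mxd4, Mnt and Mga. Among genes whose 3′ UTR is within 25% of the member's length, TACCTCA was held by 5.96% for Mycn and 13.5% for Mycl. It was held by 22.4% for Mxd1, 19.8% for Mxd4, 16.7% for Mnt and 27.5% for Mga. Myc, Max, Mxi1 and Mxd3 held neither string in that transcript. Shorter or imperfect matches and other transcripts were not searched, and the paper's introduction names Myc among the targets of let-7.

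The transgene was seen first as the row Lin28b, which counts reads of the mouse gene and those reads of the human cDNA that aligned to it. It was at 57 to 232 normalized counts in tet-LIN28B and 4.63 to 10.2 in control large Pro-B libraries, at 41.9 to 175 and 9.92 to 28.8 in large Pre-B, and at 81.9 to 230 in tet-LIN28B small Pre-B libraries, with 0 in all 3 control libraries. Reads counted on genes came to between 13.9 and 23.3 M for a large Pro-B library, between 19.9 and 30.4 M for a large Pre-B library and between 32.0 and 51.0 M for a small Pre-B library. A normalized count is a read count divided by the library's size factor, set within each stage, so genotypes were compared within a stage. Levels across stages are given as CPM, the reads of a gene scaled to 1 M reads in the library, from the whole reads recovered from these values, and between genes as CPM per kb of transcript. In large Pro-B cells 2 libraries, tet-LIN28B replicate 4 and control replicate 4, stood apart. Transcripts of at least 6 kb were low against those of at most 1.5 kb there, by 1.13 and 0.86 on the log2 scale, and their mean Spearman correlation with the other libraries was 0.864 and 0.877, against 0.919 to 0.940 elsewhere in that stage. Markers of pro-B, pre-B and B cells were all detected at each stage, markers of T and NK cells were close to absent, and the large Pre-B control replicate 3 carried the highest sum of myeloid markers, 411 CPM.

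Myc was the member that changed most, and it did so in small Pre-B cells. Its gene lies at chr15:61985341-61990361. The tet-LIN28B small Pre-B libraries had 315, 441 and 469 normalized counts of Myc, against 37.2, 76.8 and 39.5 in the control libraries. Every tet-LIN28B library was thus above every control library, with a wide gap between them. Expressed as whole reads, this was 447, 425 and 518 reads in tet-LIN28B against 40, 71 and 42 reads in control libraries. The log2 fold change was 3.03 ± 0.29 (SE, 95% interval 2.38 to 3.68), 8.17-fold, with an adjusted p of 0.000231 in limma, rank 63 of 14664 genes. In small Pre-B cells 14.4% of all genes tested passed this threshold, and 33.9% had genotypes whose libraries did not overlap. Under the 16 alternatives for this comparison the log2 fold change of Myc stayed between 2.85 and 3.36 and its adjusted p at or under 0.00148. In bulk RNA, a larger share of Myc-expressing cells and more Myc RNA per cell cannot be told apart.

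The same gene did not pass at the larger stages. In large Pre-B cells Myc had 1344, 1881, 1396 and 1294 normalized counts in tet-LIN28B libraries and 1240, 1155 and 1510 in control libraries, ranges that overlapped (log2 fold change 0.18 ± 0.21 SE, adjusted p 0.868, limma). In large Pro-B cells it had 4250, 4712, 3395, 5082 and 4178 normalized counts in tet-LIN28B libraries, against 3853, 4163, 6395 and 8177 in control libraries. The 2 highest values were both controls, and the highest, 8177, was control replicate 4, 1 of the 2 libraries that stood apart. The highest tet-LIN28B value, 5082, was replicate 4 of that genotype, the other such library. The log2 fold change of −0.33 ± 0.25 (SE, 95% interval −0.87 to 0.21) did not pass (adjusted p 0.999, limma). The stage dependence was tested directly over 11830 genes in limma, with the 6 groups in 1 model and a random term for the mouse. The log2 fold change of Myc in small Pre-B cells exceeded that in large Pre-B cells by 2.91 ± 0.39 (SE, adjusted p 0.00283) and that in large Pro-B cells by 3.36 ± 0.37 (SE, adjusted p 0.000118). Between large Pre-B and large Pro-B cells it differed by 0.45 ± 0.31 (SE, adjusted p 1). Only 2 genes passed for small against large Pre-B cells, 0.0169% of those tested, Myc and Lin28b. Lin28b is the row that takes reads of the transgene. Its control libraries were all at 0 in small Pre-B cells and at 9.92 to 28.8 normalized counts in large Pre-B cells. Its small Pre-B fold change thus depends on the added count of 1, and the size of its stage difference is not a measured response. For small Pre-B against large Pro-B cells 4 genes passed, 0.0338%, Myc, Id3, Dgkh and the predicted gene A630023P12Rik. Without the 2 large Pro-B libraries that stood apart the count for small Pre-B against large Pro-B cells was 35, the small against large Pre-B count was 4, and Myc passed in both. For no other member did the difference between stages pass (adjusted p of 0.992 or more, limma). Their SE for small against large Pre-B cells ran from 0.39 for Mxd4 to 1.72 for Mycl, so small differences could have been missed.

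**Figure D1:**
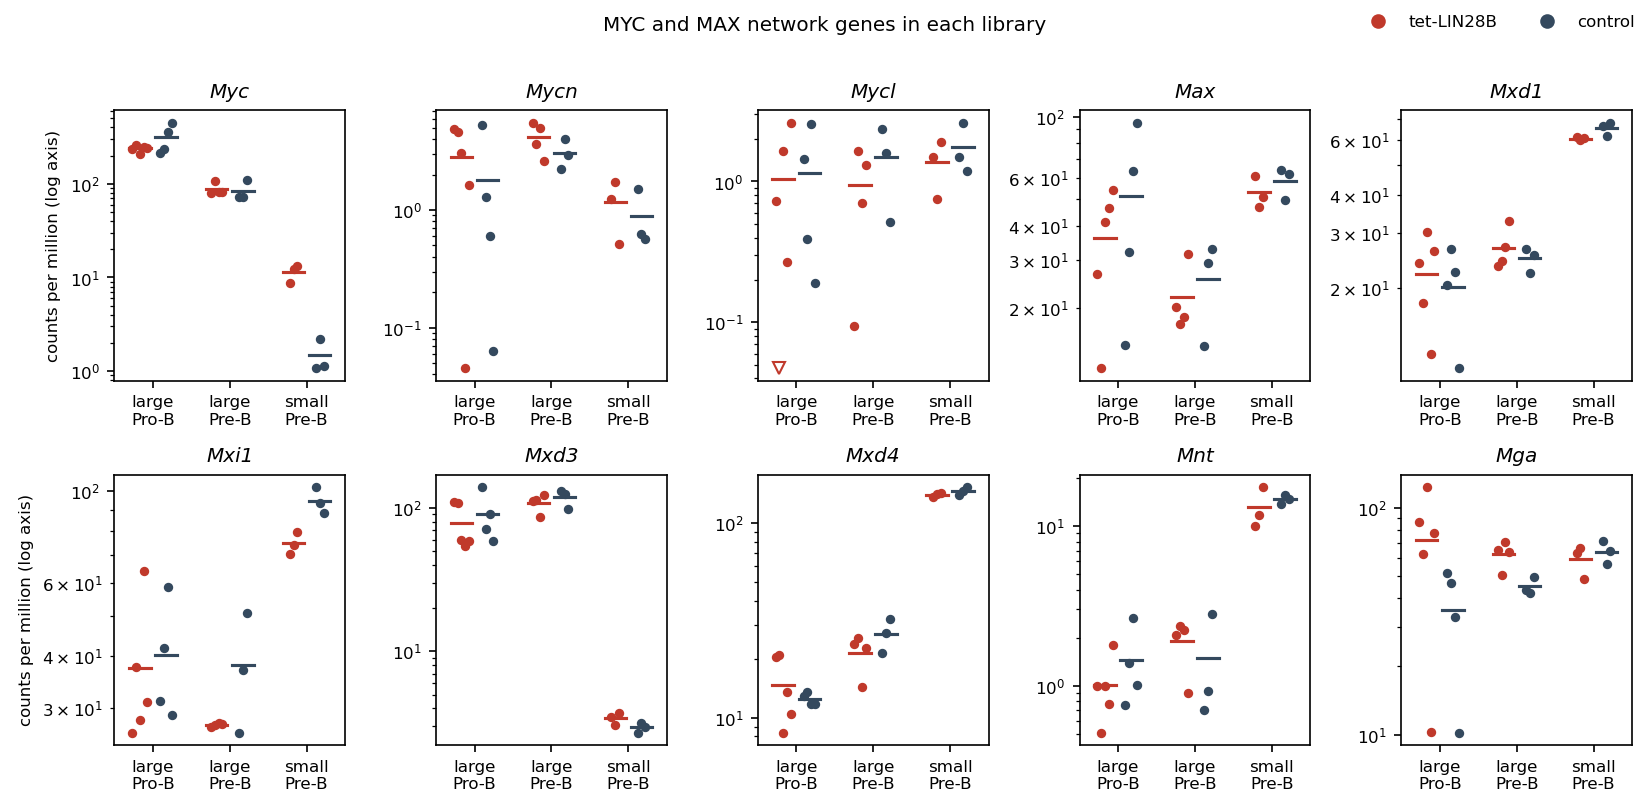
CPM of each gene (log axis, a panel each) in every library, by stage, with tet-LIN28B in red left of control in blue; bars are group means and the open triangle is a library with 0 reads. Mean Myc is 239 CPM in tet-LIN28B and 314 CPM in control large Pro-B cells, and 11.5 CPM in tet-LIN28B and 1.48 CPM in control small Pre-B cells.

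Across development, Myc was lower at each later stage in both genotypes, and the genotypes parted at the last one. Mean Myc was 239 ± 20.3 CPM in tet-LIN28B and 314 ± 111 CPM in control large Pro-B cells (SD, n = 5 and 4), 87.7 ± 13.1 and 84.8 ± 22.6 CPM in large Pre-B cells (n = 4 and 3), and 11.5 ± 2.43 and 1.48 ± 0.643 CPM in small Pre-B cells (n = 3 each). In this order of 6 groups, the genotypes overlapped at both large stages, while the stages, and the genotypes of small Pre-B cells, did not overlap. The tet-LIN28B small Pre-B level therefore lay between the large Pre-B levels and the control small Pre-B level. Levels across stages are given as a description, with no test, since stages were normalized separately and small Pre-B cells came from other mice. The share of all genes without overlap between stages was not counted.

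The other activators were scarce. Mycn (chr12:12936093-12941836), best known from neuroblastoma and early progenitors, had 18.1 to 62.2 normalized counts in tet-LIN28B and 19.7 to 52.1 in control small Pre-B libraries (log2 fold change 0.38 ± 0.53 SE, adjusted p 0.681, limma). Mycl (chr4:122995588-123002490), named for its amplification in lung cancer, had 27 to 67 and 41.3 to 90.8 there (−0.33 ± 0.41 SE, adjusted p 0.644, limma). Both were at 5.55 CPM or less in every library of the series, and Mycl was at 0 in the large Pro-B tet-LIN28B replicate 2. Per kb of transcript, Myc made up 80.9 to 88.6% of the summed MYC family in tet-LIN28B small Pre-B libraries and 31.7 to 49.1% in control libraries. At the large stages that share was 93.9% or more in every library. The control small Pre-B cells were the only group of the 6 in which Mycn and Mycl together exceeded Myc.

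Max (chr12:76937269-76962323), the obligate partner, did not pass between genotypes at any stage. In small Pre-B cells it had 2185, 1678 and 1783 normalized counts in tet-LIN28B libraries and 2211, 1716 and 2144 in control libraries (log2 fold change −0.11 ± 0.12 SE, 95% interval −0.38 to 0.17, adjusted p 0.624, limma). The ranges overlapped almost fully. In large Pre-B cells it had 305 to 496 and 250 to 472 normalized counts. In large Pro-B cells the libraries spread widely, from 216 to 943 in tet-LIN28B and from 263 to 1730 in control, with the highest value in control replicate 4, which is 1 of the 2 libraries that stood apart. Per kb, Max averaged 27.3 and 30.1 CPM in tet-LIN28B and control small Pre-B cells, against 11.3 and 13.1 in large Pre-B cells.

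Among the MXD repressors, which oppose MYC at common sites, Mxi1 (chr19:53310128-53373293) was the only one called. It had 2527, 2641 and 2785 normalized counts in tet-LIN28B small Pre-B libraries and 3533, 3232 and 3062 in control libraries. The libraries did not overlap, and the highest tet-LIN28B value was close under the lowest control value. The log2 fold change was −0.30 ± 0.08 (SE, 95% interval −0.48 to −0.13, 0.81-fold, adjusted p 0.0284, limma). The call did not hold when 1 library was left out in 4 of 6 cases, with adjusted p of 0.0962 without tet-LIN28B replicate 1, 0.0583 without tet-LIN28B replicate 2, 0.115 without control replicate 1 and 0.0772 without control replicate 2 (limma). The balance of long against short transcripts did not overlap between these genotypes. It was −0.17, 0.00 and −0.22 in tet-LIN28B and 0.25, 0.06 and 0.10 in control libraries, on the log2 scale. Mxi1 has a transcript of 5.04 kb, and the part of this balance in its value was not tested. Mxi1 overlaps Gm10197 by 201 bases on the opposite strand, and the library kit does not keep strand. That gene had 40.4 to 65.2 normalized counts in tet-LIN28B and 60.1 to 85.6 in control small Pre-B libraries, far fewer than Mxi1. At the larger stages Mxi1 did not pass, where its log2 fold change was −0.13 ± 0.34 (SE) in large Pro-B cells and −0.32 ± 0.23 (SE) in large Pre-B cells (adjusted p 0.999 and 0.775, limma).

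Mxd1 (chr6:86647044-86669234), the MXD of terminal differentiation, was the only member with CTACCTC. It had 2208, 2143 and 2132 normalized counts in tet-LIN28B and 2308, 2135 and 2374 in control small Pre-B libraries. The groups overlapped (log2 fold change −0.07 ± 0.07 SE, 95% interval −0.24 to 0.09, adjusted p 0.575, limma). Mxd4 (chr5:34176580-34187710) was the most abundant MXD of small Pre-B cells per kb and had the narrowest interval of the members, with 4894 to 5062 normalized counts in tet-LIN28B and 4838 to 5332 in control libraries (−0.03 ± 0.06 SE, 95% interval −0.17 to 0.11, adjusted p 0.819, limma). Mxd3 (chr13:55325170-55329900), the MXD of dividing cells, had 109 to 129 in tet-LIN28B and 94 to 109 in control small Pre-B libraries (0.24 ± 0.20 SE, adjusted p 0.474, limma). One end of Mxd3 overlaps Prelid1 on the opposite strand, and Prelid1 had 14058 to 15179 normalized counts in tet-LIN28B and 11569 to 12737 in control small Pre-B libraries. How far reads of Prelid1 enter the low Mxd3 value was not tested. Mnt (chr11:74830806-74845725), the broadly expressed antagonist of MYC, had 359, 417 and 615 in tet-LIN28B and 478, 542 and 514 in control small Pre-B libraries, groups that overlapped (−0.18 ± 0.18 SE, adjusted p 0.577, limma).

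**Figure D2:**
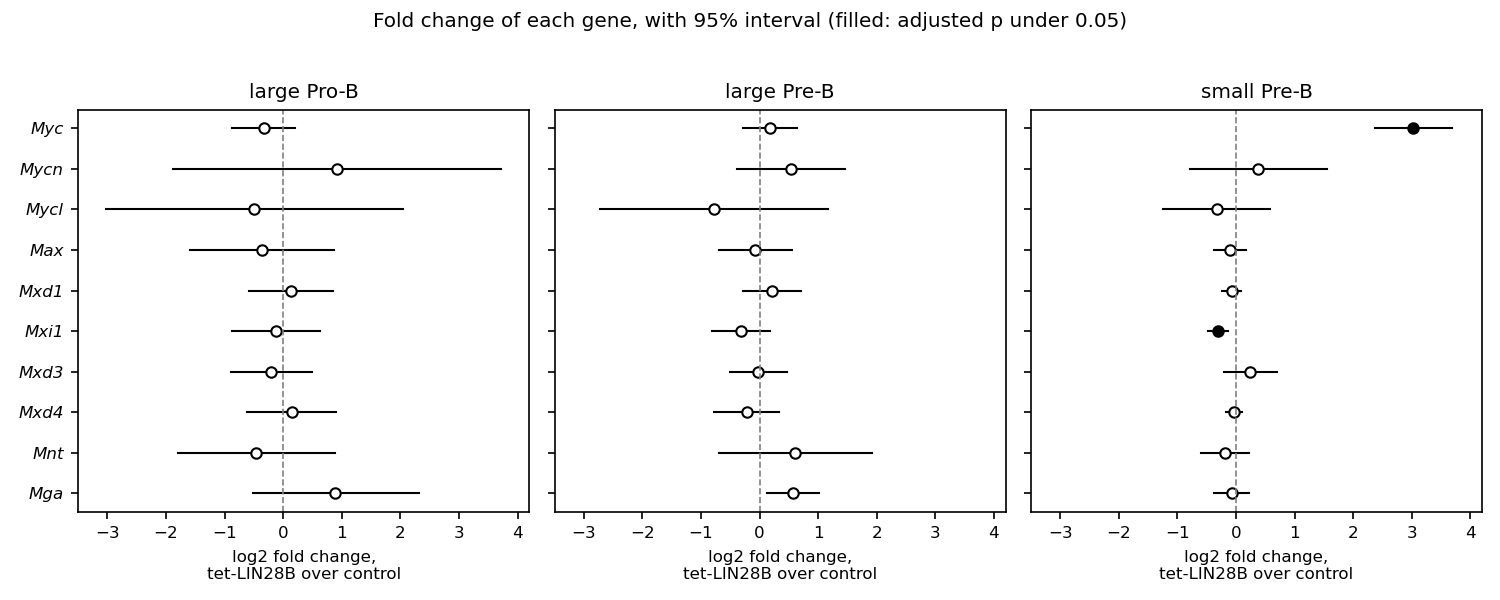
Log2 fold change of tet-LIN28B over control for each gene at each stage, with its 95% interval from limma; filled points have an adjusted p under 0.05. Myc at 3.03 and Mxi1 at −0.30 in small Pre-B cells are the filled points, and the widest intervals belong to Mycn and Mycl in large Pro-B cells.

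Of the 10 members, 2 were called in small Pre-B cells, where 14.4% of all genes were, 1 higher (7.34% of all genes) and 1 lower (7.03%). The count was 0 in large Pre-B cells and 0 in large Pro-B cells, where 0.0565% (0.0424% higher and 0.0141% lower) and 0% of all genes tested were called by limma. At an unadjusted p under 0.05 there was 1 member in large Pre-B cells and 0 in large Pro-B cells, and edgeR and DESeq2 on the recovered reads called 0 members at both stages. Over all genes, 930 and 394 genes had an unadjusted p under 0.05 at these 2 stages, edgeR called 0 and 0 genes and DESeq2 called 76 and 4. The member under 0.05 was Mga (chr2:119872503-119970129), the largest protein of the network. It had 1093, 891, 1219 and 1004 normalized counts in tet-LIN28B large Pre-B libraries and 747, 684 and 676 in control libraries. All tet-LIN28B libraries were above all controls, as was so in one direction or the other for 6.46% of genes at this stage. The log2 fold change was 0.57 ± 0.21 (SE, 95% interval 0.13 to 1.02, unadjusted p 0.0151, adjusted p 0.747, limma), so it failed the correction. Mga has a transcript of 13.93 kb, and the balance of long against short transcripts differed between these libraries too. It was 0.45, 0.23, −0.18 and 0.18 in tet-LIN28B and 0.07, −0.22 and −0.57 in control libraries, on the log2 scale, and its part in the Mga value was not tested. In small Pre-B cells Mga had 1706 to 2397 normalized counts in tet-LIN28B and 1965 to 2485 in control libraries (−0.07 ± 0.13 SE, adjusted p 0.758, limma).

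In large Pro-B cells several members were at an extreme in the 2 libraries that stood apart. Mga had 1582, 1129, 2021, 209 and 1360 normalized counts in tet-LIN28B libraries and 926, 839, 593 and 185 in control libraries. The low value of each genotype was its replicate 4. Mycn was at 88.2, 83.2, 49.9, 0.915 and 28.8 in tet-LIN28B and at 94.9, 23.1, 10.8 and 1.15 in control libraries, again lowest in both replicates 4. Without these 2 libraries the log2 fold change of Mga was 0.95, against 0.89 ± 0.65 (SE) with them, and it passed in neither case (adjusted p 0.681 and 0.999, limma). No member was called in large Pro-B cells without them. With all libraries, the genotypes overlapped for all 10 members there, and 1.30% of genes did not overlap.

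**Figure D3:**
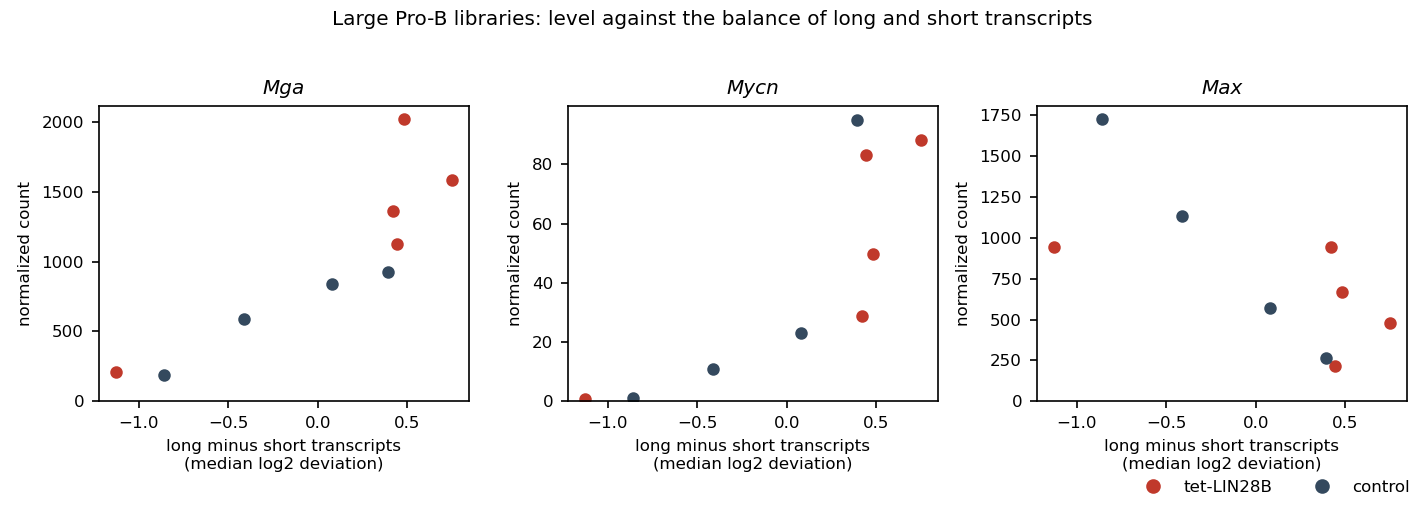
Normalized counts of Mga, Mycn and Max in the large Pro-B libraries (tet-LIN28B red, control blue) against the median log2 deviation of long minus that of short transcripts in the library. The 2 points at the far left, at −1.13 and −0.86, are tet-LIN28B replicate 4 with 209 and control replicate 4 with 185 normalized counts of Mga.

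The make-up of the network turned over between large and small Pre-B cells in both genotypes. On the CPM scale, Mxd3 in small Pre-B cells was 0.0313 times its large Pre-B level in tet-LIN28B and 0.025 times in control cells. It was at 3.41 ± 0.334 CPM in tet-LIN28B and 2.95 ± 0.224 CPM in control small Pre-B cells (SD, n = 3 each), and at 109 ± 16.1 and 118 ± 17.3 CPM in large Pre-B cells (n = 4 and 3). The other MXD members, Mnt and Max were higher in small than large Pre-B cells, by 2.79 log2 units in tet-LIN28B and 3.32 in control cells for Mnt, 1.17 and 1.40 for Mxd1, 1.45 and 1.31 for Mxi1, and 1.27 and 1.20 for Max. Mxd4 was 6.48 times its large Pre-B level in tet-LIN28B and 5.46 times in control small Pre-B cells. In each of these the stages did not overlap in either genotype. How many of all genes likewise do not overlap between these stages was not counted, so this describes the members and sets them apart from no other genes. Mga differed by −0.07 in tet-LIN28B cells, where the stages overlapped, and by 0.51 in control cells, where they did not. Per kb of transcript, Mxd3 made up 68.4 to 83.9% of the summed MXD and MNT in tet-LIN28B and 75.1 to 88.2% in control libraries at the large stages, and 3.3 to 3.9% and 2.7 to 3.2% in small Pre-B libraries. There Mxd4 held the largest share, 50.9 to 53.1% in tet-LIN28B and 47.7 to 51.3% in control libraries.

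The summed MYC family over the summed MXD and MNT, per kb, was 1.04 to 1.78 in tet-LIN28B and 0.785 to 3.48 in control large Pro-B libraries. It was 0.325 to 0.464 and 0.281 to 0.493 in large Pre-B libraries. In small Pre-B libraries it was 0.069, 0.0891 and 0.0895 in tet-LIN28B against 0.0192, 0.0256 and 0.0134 in control. These ratios overlapped between genotypes at the large stages and did not in small Pre-B cells, where both genotypes were below every large Pre-B library. The summed MXD and MNT in small Pre-B libraries was 67.2 to 72.4 CPM per kb in tet-LIN28B and 75.5 to 77.4 CPM per kb in control, and the summed MYC family was 4.64 to 6.47 and 1.04 to 1.93 CPM per kb. The ratio is a score over the members and was not tested.

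**Figure D4:**
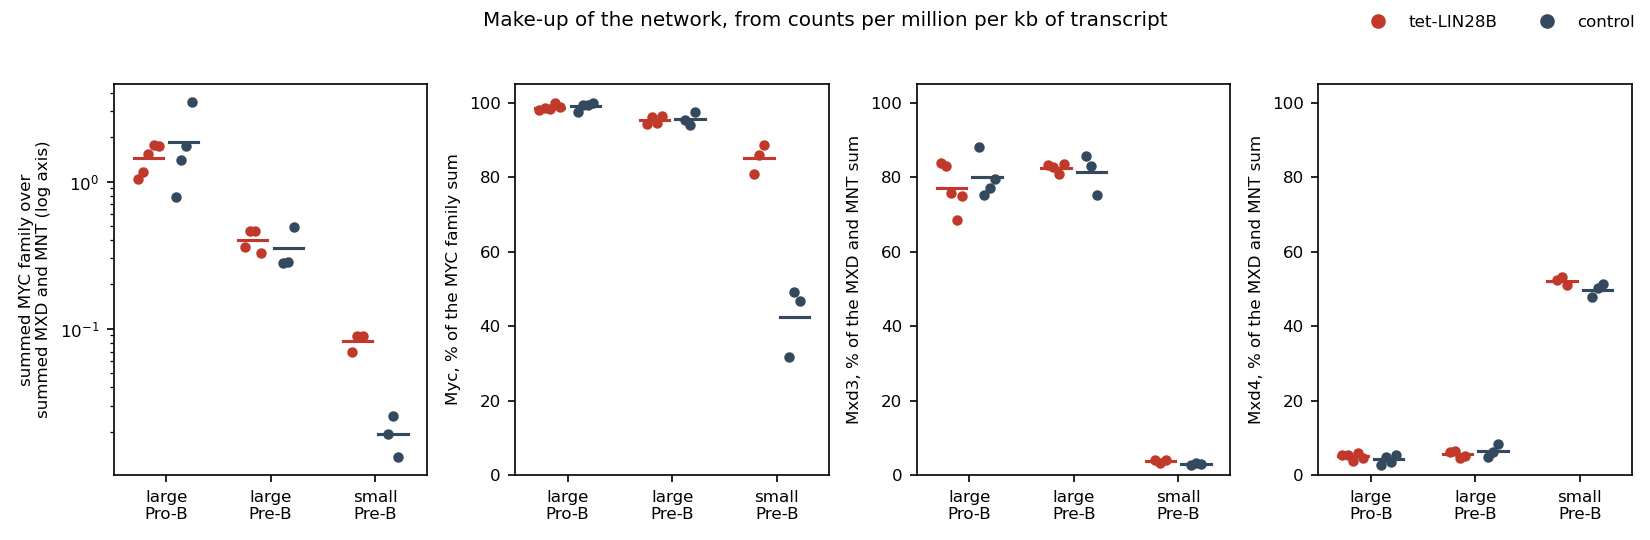
From CPM per kb, each library's ratio of the MYC family sum to the MXD and MNT sum (log axis), and the percentages held by Myc, Mxd3 and Mxd4, by stage, with tet-LIN28B in red left of control in blue and bars at group means. In small Pre-B cells the ratio averages 0.0825 in tet-LIN28B and 0.0194 in control, and Mxd3 gives way to Mxd4 in both.

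Genes around the network were taken as lists by role. In small Pre-B cells 17 of 70 MYC-activated genes rose and 2 fell, against 7.34% and 7.03% of all genes, with a median log2 fold change of 0.17 beside 0.00 for all genes tested. Those that rose with the smallest adjusted p were enzymes and a transporter. Prps2, which makes the sugar precursor of nucleotides, averaged 6647 ± 130 normalized counts in tet-LIN28B and 3602 ± 249 in control libraries (SD, n = 3 each), higher by 0.89 ± 0.07 on the log2 scale (SE, adjusted p 7.72e-05, limma). The mitochondrial folate enzymes Shmt2 and Mthfd2 rose by 0.67 ± 0.08 and 1.05 ± 0.14 (adjusted p 0.00053 and 0.00129, limma), and the amino acid transporter Slc7a5 by 0.84 ± 0.11 (adjusted p 0.00135, limma). The 2 that fell, named after their values were seen, were Tert, the catalytic subunit of telomerase, at −0.92 ± 0.24, and the fatty acid binding protein gene Fabp5, at −0.74 ± 0.20. With 1 library left out, between 10 and 16 of the 70 were called. The count was 10 without control replicate 1, 12 without control replicate 3 and 11 without tet-LIN28B replicate 1. In the large stages 0 of the 70 were called by limma, and 1 large Pro-B gene and 4 large Pre-B genes had an unadjusted p under 0.05. edgeR called 0 at both stages and DESeq2 called 0 and 1. The median of the list was −0.16 in large Pro-B cells, beside 0.02 for all genes, with 12 of the 70 above 0, and 0.01 in large Pre-B cells, beside −0.02, with 38 above 0. At the small stage 60 of the 70 were above 0.

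The MYC-repressed list did not move in one direction. Of 18 genes tested at the small stage 3 rose and 3 fell, against 7.34% and 7.03% of all genes there. The other 12 were not called, and the median was −0.05. Ndrg1, a differentiation and stress gene, fell by 1.48 on the log2 scale (SE 0.16, adjusted p 0.000468, limma), to 531 ± 99.1 normalized counts in tet-LIN28B, against 1485 ± 295 in control libraries. The growth arrest gene Gadd45b, the integrin gene Itgal and the ferritin gene Fth1 rose by 0.69, 1.14 and 0.29 (adjusted p 0.000372, 0.000488 and 0.0202, limma). The number called was 3 without tet-LIN28B replicate 1 or control replicate 1, and 9 without tet-LIN28B replicate 3 (limma).

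Among RNA-binding proteins that act on Myc mRNA, 2 of 15 rose and none fell, a count close to the 7.34% and 7.03% of all genes at that stage. Igf2bp3, a fetal reader of mRNA, averaged 554 ± 106 normalized counts in tet-LIN28B and 152 ± 41.7 in control small Pre-B libraries (log2 fold change 1.88 ± 0.22 SE, adjusted p 0.000626, limma). Pcbp2 rose by 0.50 ± 0.11 (adjusted p 0.015, limma). The coactivators of MYC and the SIN3 and HDAC corepressors of MXD and MNT gave 0 of 19 and 0 of 16 calls in limma, edgeR and DESeq2, with medians of 0.04 and 0.02. In the PRC1.6 complex of MGA, E2f6 and Rnf2 rose by 0.62 and 0.31 and Tfdp2 fell by 0.27, of 13 genes (adjusted p 0.0192, 0.0224 and 0.0483, limma). Among 19 genes of MYC protein stability Btrc, an E3 ligase subunit, fell by 0.27 (adjusted p 0.0477, limma). As limma called 14.4% of all genes at this stage, a few calls in such lists are no result about them. No gene of the PRC1.6 list was called without tet-LIN28B replicate 1 or control replicate 1, and none of the stability list without either of these or without control replicates 2 or 3. The MLX arm pairs with a MAX-like partner to sense glucose. Its gene Mlxipl averaged 0.704 ± 1.22 normalized counts in tet-LIN28B and 19 ± 7.53 in control small Pre-B libraries. It passed the filter only through the control libraries, where it was high, so its adjusted p (0.0114, limma) is no support for a difference. The call did not hold without control replicate 2 or 3.

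**Figure D5:**
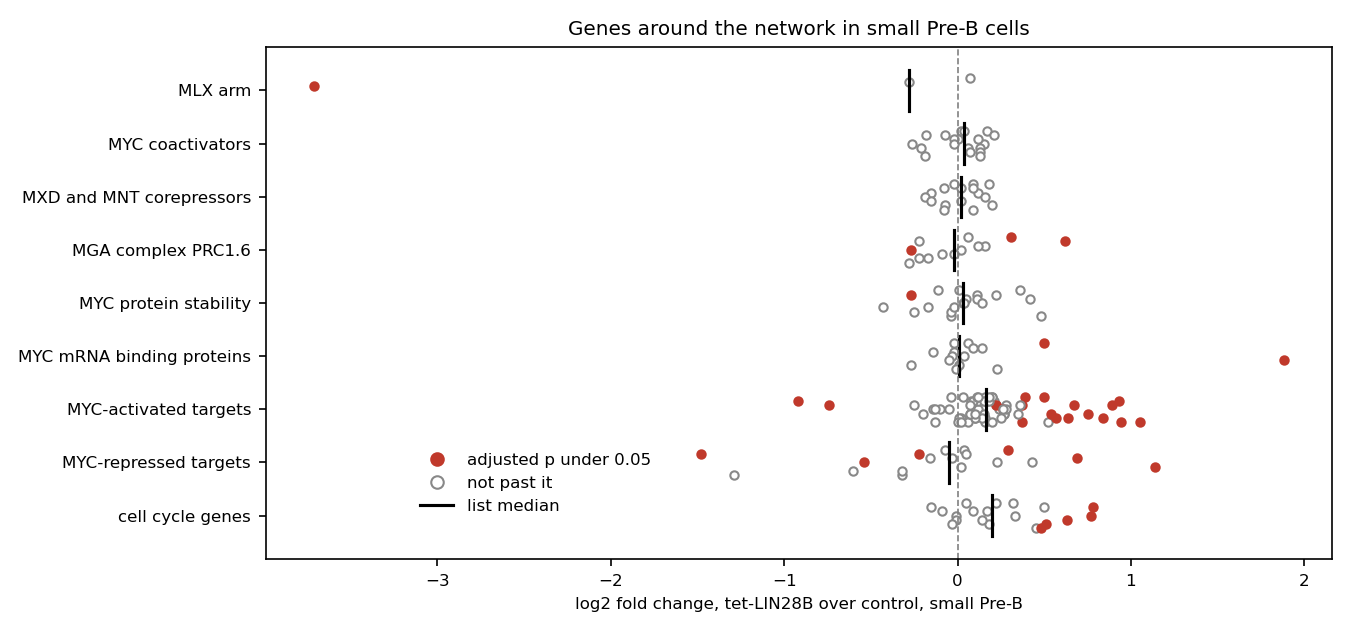
Log2 fold change of tet-LIN28B over control in small Pre-B cells for each tested gene of 9 lists (rows), with genes past an adjusted p of 0.05 filled and the list median as a bar. Medians run from −0.28 to 0.20, and the points farthest from 0 are Mlxipl at −3.71, a gene with almost no reads in tet-LIN28B, and Igf2bp3 at 1.88. Mlxipl passed the filter on low values through its control libraries alone.

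Beside these small Pre-B values, other genes differed between the genotypes. Of 20 cell cycle genes 5 rose and none fell, against 7.34% and 7.03% of all genes, with a median of 0.20. They were Birc5 (0.78 ± 0.17 SE), Ccna2 (0.77 ± 0.14 SE), Ccnb1 (0.63 ± 0.15 SE), Ccnb2 (0.51 ± 0.14 SE) and Mki67 (0.48 ± 0.12 SE). Without tet-LIN28B replicate 1 or control replicate 1 the count was 1, without control replicate 2 it was 2, and without tet-LIN28B replicate 3 or control replicate 3 it was 3. The summed level of the 20 genes was 728 to 948 CPM in tet-LIN28B and 658 to 824 CPM in control small Pre-B libraries, ranges that overlapped, against 15356 CPM or more in every large Pre-B library. Markers of immature and mature B cells (Ighd, Cd22, Fcer2a, Cr2, Ms4a1, Cd74 and H2-Aa), all 7 with reads, summed to 3707 to 3749 CPM in tet-LIN28B and 1541 to 2017 CPM in control small Pre-B libraries. The sort took IgM- cells, a gate meant to leave such B cells out, and their part in the Myc and target values was not tested. Other marker sums also did not overlap between the genotypes of small Pre-B cells. Those of pro-B cells (4859 to 5212 CPM in tet-LIN28B and 5219 to 5601 CPM in control), plasma cells (239 to 286 and 322 to 372 CPM) and myeloid cells (41 to 41.7 and 47.1 to 85.5 CPM) were lower in tet-LIN28B. Those of erythroid cells (4.14 to 4.93 and 1.43 to 2.9 CPM) and stroma (0.518 to 1.36 and 0.0312 to 0.188 CPM) were higher there, at low levels.

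The genes whose deviation from the control mean of their stage followed that of Myc most closely over the 22 libraries were Kcnn4 (Pearson r 0.879), Shmt1 (0.877), Mthfd2 (0.871), Pitpnm2 (0.867) and Gpx1 (0.866), out of 11829 genes. Their log2 fold changes in small Pre-B cells were 2.02, 0.93, 1.05, 1.62 and 0.66, and that of Kcnn4 did not pass (adjusted p 0.0571, limma). By mean log2 normalized count over the 6 groups, the nearest were Eef1g (0.994), Ppargc1b, Bsn, Rbmxl1 (0.988 each) and Pdss1 (0.987). Stages were normalized separately, so correlations of group means depend in part on that scale, and they are not given on CPM. These correlations describe libraries that share stages and mice. On the normalized counts, Mxd3 was the only member whose group means ran with those of Myc (r 0.85). There Mycn had −0.19, and the others had −0.71 to −0.90 over the 6 groups. On CPM, Mycn too was lower in small than in large Pre-B cells, by 1.86 log2 units in tet-LIN28B and 1.78 in control cells. Its large Pre-B and large Pro-B libraries overlapped in both genotypes.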

How the data were processed

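B cell precursors were sorted as CD93+ IgM- cells, divided by cKIT and forward scatter. The SMART-Seq v4 and Nextera XT kits gave the libraries. Per the submitters' processing notes, reads were aligned with STAR 2.7.1 to mm10 and quantified with RSEM 1.28. The authors deposited a signal table for each stage that holds normalized counts, that is, read counts over a DESeq2 size factor. The sources used here do not give the gene annotation. Deposited tables of the authors' own comparisons hold fold changes, test statistics and p-values and were not used.

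All values of a library were whole multiples of 1 read (100% within 0.1 read), which gave read counts and CPM. These reads carry no molecular identifiers, so depth covers counting error only. Transcript lengths are those of the longest coding GENCODE M21 transcript (GRCm38, the build of mm10). The genotype contrast was fitted stage by stage with limma 3.58.1 (R 4.3.3, trend). The fit took log2(normalized count + 1) and kept genes that reached 10 in as many libraries as the smaller group, 13776, 14155 and 14664 genes. Fold changes on this scale understate low genes. Calls were made at a Benjamini-Hochberg adjusted p under 0.05 over all genes tested. The stage model used the mouse as a random block (correlation 0.278). Recovered reads were also tested with edgeR 4.0.16 and DESeq2 1.42.0, and the scripts were tested on simulated data with 200 changed genes. No member fell under the filter, so the exact test planned for such genes was not needed. Replicates are separate mice per the labels. The 10 members, the lists and the alternatives were chosen with earlier results of these data known. The named genes are all members, the 4 called genes (or fewer) with the smallest adjusted p in a list, and the 5 genes most like Myc by each measure. In the list of immature and mature B cell markers 1 gene is not reported here and is left out of the sum. Which sequencer read which library is not stated, so that batch could not be checked.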

Additional observations from a re-analysis of the deposited data

Results flagged for a closer look

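The tet-LIN28B effect on Myc differed between stages by a test of the difference itself, by 2.91 log2 units for small Pre-B minus large Pre-B and by 3.36 for small Pre-B minus large Pro-B (limma, adjusted p 0.00283 and 0.000118).

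Of 30 groups of 4 or 5 libraries checked for a member value far from the others, 1 stood out, where chance gives about 1 in 20 groups. Mxi1 had 1298 normalized counts in large Pro-B tet-LIN28B replicate 4, against 456 to 673 in the other 4 libraries of that group, and this library is 1 of the 2 with low values of long transcripts.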

How the results depend on the processing

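Myc was called in small Pre-B cells under all 16 alternatives, and its stage differences for small Pre-B cells under all 27 (adjusted p at most 0.0206). Of 524 member values under alternatives, 17 changed sign, all with 1 library left out and none for a member called at that stage. Left-out ranges of log2 fold change were −0.04 to 1.90 for Mycn, −1.06 to 0.35 for Mycl, −0.86 to 0.05 for Max, −0.13 to 0.29 for Mxd1, −0.38 to 0.07 for Mxi1 (−0.52 without tet-LIN28B replicate 4 and control replicate 4) and −0.37 to 0.04 for Mxd3 in large Pro-B cells, −0.36 to 0.09 for Max and −0.24 to 0.13 for Mxd3 in large Pre-B cells, and −0.60 to 0.04 for Mycl, −0.06 to 0.01 for Mxd4 and −0.17 to 0.08 for Mga in small Pre-B cells. The Mnt level of large Pre-B over large Pro-B control cells was 0.03 on CPM, against −0.26 on normalized counts. The cause of these changes was not tested.

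Genes called in large Pre-B cells were 8, against 15 with no filter, 1 with libraries rescaled to a common total, 4 with quantile normalization, 0 with edgeR and 76 with DESeq2, and 0 to 23 with 1 library left out. In large Pro-B cells DESeq2 called 4 and the left-out fits 0 to 1. In small Pre-B cells 2107 genes were called, and 1016 to 1965 with 1 library left out, 1 to 2 of them members. Stage differences passed for 0 to 2, 1 to 3 and 1 to 32 genes with 1 library left out (large Pre-B minus large Pro-B, small minus large Pre-B, small Pre-B minus large Pro-B). Small minus large Pre-B gave 1 gene with a pseudocount of 5. Leaving out the 2 large Pro-B libraries that stood apart, an alternative chosen after seeing the data, gave 4, 4 and 35.

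Replicate numbers name different mice, and same-numbered libraries deviated together by correlations of −0.19 to 0.43, −0.06 to 0.16 and −0.11 to 0.02 in the 3 stages. With the replicate block 0, 5 and 1758 genes were called, and 1 member, Myc, in small Pre-B cells, where Mxi1 had an adjusted p of 0.0566 (limma).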
